A study of Homo sapiens with 5 samples.

Results

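IL1RAPL1, IL1RAPL2, IL1RAP, PTPRD, NRXN2, NRXN3, NLGN1, NLGN2 and NLGN3 encode cell surface proteins that organise synapses. They were followed in Rh41, an established human cell line labelled as fusion-positive alveolar rhabdomyosarcoma, a tumour of muscle-like cells that often carries a PAX3-FOXO1 fusion gene. The 9 genes were taken by exact name from the 43714 gene rows of the count tables. The set was selected on measured values: IL1RAPL2 was known to be higher after H3F3A siRNA in these same libraries, and the question was whether that rise extended to other synapse organisers. The difference between the groups therefore took part in choosing them, and their fold changes are given as a description with no p-value. A gene is said to have been called when its adjusted p in the fit across all genes was under 0.05.

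Both groups were Rh41 cells transfected with Lipofectamine RNAiMAX for 48 hours. Controls received a scrambled siRNA (replicates 1 and 3, n = 2 libraries) and treated cells an siRNA specific for H3F3A, a gene for the histone variant H3.3 (replicates 1, 2 and 3, n = 3 libraries). Total RNA was enriched for poly-A RNA and sequenced, with 28493573 to 30705963 reads assigned to genes per library. Nothing in the labels says that the replicates were separate cultures, so the spread between them may be technical.

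The targeted gene, listed as H3-3A, fell 29.7-fold, from 294 and 269 CPM (reads scaled to the size of the library, with TMM factors) to 9.37, 10.5 and 8.54 CPM. Of 10 rhabdomyosarcoma markers 9 were measurable, among them MYOD1 at a mean of 1192 CPM, DES at 738 CPM and MYOG at 237 CPM, and CDH3 was at 0.201 CPM. Of these, FGFR4 was called lower (1.41-fold, edgeR adjusted p = 0.00258) and TFAP2B higher (1.41-fold, edgeR adjusted p = 0.00133). The neuronal marker STMN2 had no read in any library, and GAP43 and ELAVL4 had means of 0.0067 and 0.013 CPM. The summed CPM of the 12 neuron markers was 116 to 139 in scrambled libraries and 100.2 to 109 after H3F3A siRNA, with TUBB3 contributing a mean of 101 CPM. TUBB3 was called lower (log2 fold change -0.35, edgeR adjusted p = 0.0288) but not with the GC trend described below removed (edgeR adjusted p = 0.13). The other 6 neuron markers tested had log2 fold changes above 0 and were not called, among them SYT1 at a mean of 5.43 CPM (log2 fold change 0.21) and MAP2 at 5.12 CPM (0.41). The part of such cells in the results was not tested. These are bulk libraries, in which a change in the number of cells that express a gene and a change in RNA per cell cannot be told apart.

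Neurexins on the presynaptic membrane bind neuroligins on the postsynaptic membrane across the synaptic cleft, and cells that present either protein can induce synaptic specialisations in a contacting neuron. The presynaptic receptor phosphatase PTPRD, of the LAR family, recognises a different set of postsynaptic ligands, which includes IL1RAPL1 and IL1RAP. IL1RAPL1 and IL1RAPL2 are close relatives in the interleukin-1 receptor family and carry immunoglobulin domains outside and a TIR domain inside the cell. IL1RAP is also the shared accessory chain of receptors for interleukin-1 and interleukin-33, and is widely expressed outside the nervous system.

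Because the results turn on genes with close paralogs, stretches where the paralogs are much alike are shown. For each pair this is the most alike run of 90 coding bases within a single exon of both genes. Only runs aligned without a gap that start at a codon of the first gene were considered, and none across exon junctions. They are read 5′ to 3′ from GENCODE v29 transcripts (GRCh38), with capitals at the bases that differ between the paralogs. In IL1RAPL1 the run is in exon 11 of its longest complete coding transcript (chrX:29955176-29955265, plus strand), and in IL1RAPL2 it is likewise in exon 11 (chrX:105767038-105767127, plus strand).
IL1RAPL1: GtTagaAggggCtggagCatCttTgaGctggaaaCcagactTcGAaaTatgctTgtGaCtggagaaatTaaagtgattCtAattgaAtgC
IL1RAPL2: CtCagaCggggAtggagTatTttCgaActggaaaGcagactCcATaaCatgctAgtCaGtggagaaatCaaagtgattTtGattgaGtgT
Even here only 69 of 90 bases were identical. Over the whole coding sequence the paralogs shared 67.8% of 2047 aligned bases, and their longest identical run was 20 bases.

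For the neurexins the run is in exon 16 of NRXN2 (chr11:64648780-64648869, minus strand) and in exon 13 of NRXN3 (chr14:78968211-78968300, plus strand).
NRXN2: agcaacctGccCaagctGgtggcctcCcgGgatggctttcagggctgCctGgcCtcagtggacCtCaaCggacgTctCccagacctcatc
NRXN3: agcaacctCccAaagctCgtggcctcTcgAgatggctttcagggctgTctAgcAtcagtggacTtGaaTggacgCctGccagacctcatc
Here 77 of 90 bases were identical. The longest identical run between their coding sequences was 32 bases, and it is not contained in this stretch. The runs also show how the paralogs differ in base composition: G and C made up 64.4% of the NRXN2 run and 56.7% of the NRXN3 run. Over their transcripts the mean GC content was 63.5% for NRXN2 and 50.5% for NRXN3. Base composition matters for these libraries, as described below. The neuroligins differed as well, with transcript GC contents of 42.8% for NLGN1, 56.2% for NLGN3 and 66.7% for NLGN2. In the basic annotation of GENCODE v29, IL1RAP alone among the 9 genes shared exon bases with another gene. That gene is a long noncoding RNA on the same strand that has no row in the count tables. Overlaps in the annotation used for counting may differ.

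Rh41 cells expressed a subset of these genes, and PTPRD dominated. Levels were compared between genes as CPM per kb of exon, with exon lengths from GENCODE v29, which may differ from the annotation used for counting. PTPRD stood at 11.1 and 13.2 CPM per kb in scrambled libraries. By this measure IL1RAPL2 came next at 4.80 and 5.11 CPM per kb, followed by NLGN1 at 3.64 and 3.89 CPM per kb. Their order depends on the annotated exon length, 2.99 kb for IL1RAPL2, 8.72 kb for NLGN1 and 9.945 kb for IL1RAP. Their coding lengths were closer, at 2058, 2469 and 2061 bases. Without scaling by length, the scrambled means were 14.8 CPM for IL1RAPL2, 32.8 CPM for NLGN1 and 15.7 CPM for IL1RAP. NRXN2 (1.70 and 1.53 CPM per kb) and IL1RAP (1.45 and 1.71 CPM per kb) could not be separated per kb, since their ranges overlapped. Without scaling by length they did not overlap, with NRXN2 at 12.6 and 11.3 CPM and IL1RAP at 14.4 and 17.0 CPM in scrambled libraries.

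NLGN3 was lower, at 0.610 and 0.532 CPM per kb, and NLGN2 stood at 0.123 and 0.109 CPM per kb. NRXN3, at 0.0515 and 0.0844 CPM per kb, rested on 21 to 35 reads per library and NLGN2 on 15 to 22. Per kb, NLGN2 lay above NRXN3 in all 5 libraries. That order depends on the annotated exon length, 13.96 kb for NRXN3 and 5.55 kb for NLGN2. Without scaling by length, NRXN3 lay above NLGN2 in all 5 libraries. IL1RAPL1 had 0 and 2 reads with the scrambled siRNA and 3, 3 and 2 with the H3F3A siRNA, 10 in all against 2942 for IL1RAPL2. IL1RAPL1 was the only one of the 9 genes too low to be tested. NLGN4X, a further neuroligin gene, had 3 to 5 reads per library. A count of 0, as for IL1RAPL1 in scrambled siRNA replicate 1, allows up to 0.103 CPM (3 reads).

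**Figure D1:**
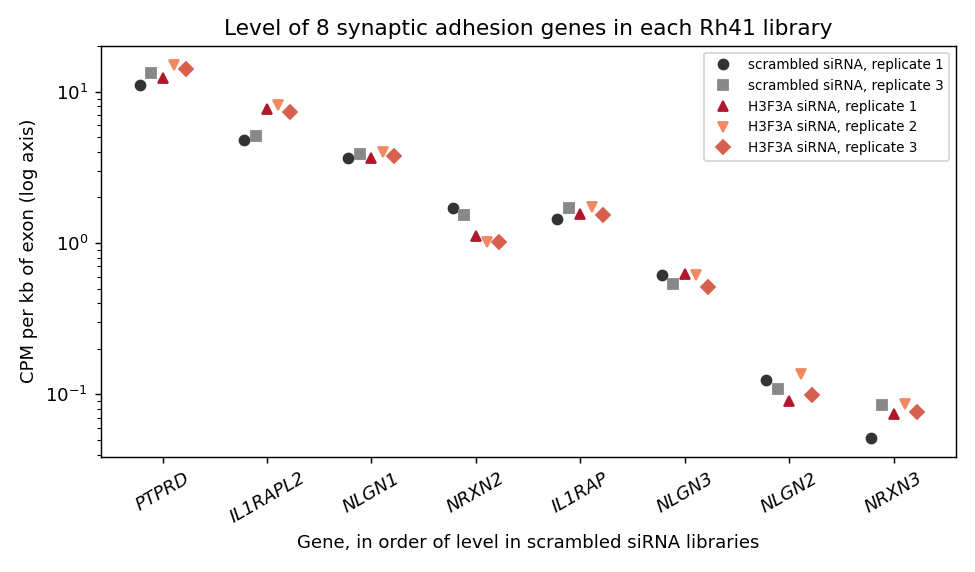
Level of each tested gene in each library, in CPM per kb of exon on a log axis, ordered by the mean in scrambled siRNA libraries; each point is 1 library, black and grey for scrambled siRNA and red shades for H3F3A siRNA. PTPRD is highest in all 5 libraries, and the groups separate for IL1RAPL2 (higher after H3F3A siRNA) and NRXN2 (lower).

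PTPRD took 60.5% to 64.8% of the reads of the 9 genes in each library. The share of IL1RAPL2 was 7.36% and 6.87% with the scrambled siRNA and 10.8%, 9.78% and 9.45% with the H3F3A siRNA. NLGN1 took 14.0% to 16.3%.

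Across the 8 tested genes, IL1RAPL2 was called higher, NRXN2 was called lower, and IL1RAP, PTPRD, NRXN3, NLGN1, NLGN2 and NLGN3 were not called. Of all 15859 genes tested, 3.2% were called, 0.504% higher and 2.69% lower. The groups did not overlap in IL1RAPL2 and NRXN2, and they overlapped in the other 6; over all genes tested, 33.1% did not overlap. Since the contrast took part in choosing the genes, nothing is read from these counts beyond the identity of the genes.

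IL1RAPL2 stood at 14.3 and 15.2 CPM in scrambled libraries and at 23.1, 24.3 and 21.9 CPM after H3F3A siRNA. All 3 H3F3A siRNA libraries lay above both scrambled libraries. The means were 14.8 ± 0.653 CPM (SD, n = 2) and 23.1 ± 1.19 CPM (SD, n = 3), a log2 fold change of 0.64 (SE 0.0947) or 1.56-fold with a 95% interval of 1.36 to 1.79. Its coefficient of variation was 4.42% among scrambled and 5.18% among H3F3A siRNA libraries, against 4.79% and 3.81% from counting alone. IL1RAPL2 was called in all 14 alternatives, with log2 fold changes of 0.51 to 0.69. These refit the same libraries in which its rise was already known, so they describe dependence on the settings and add no support. Without H3F3A siRNA replicate 1 it lay only just under the threshold, in a fit that called 0.0958% of all genes.

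IL1RAP, the accessory chain of the same receptor family and a ligand of PTPRD, was not called. Its levels were 14.4 and 17.0 CPM in scrambled libraries and 15.4, 17.1 and 15.2 CPM after H3F3A siRNA. The groups overlapped, and the fold change was 1.01 with a 95% interval of 0.874 to 1.17. In CPM it was close to IL1RAPL2 in scrambled libraries, so the depth behind both genes was alike.

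PTPRD, the presynaptic partner, stood at 118 and 140 CPM in scrambled libraries and at 132, 160 and 150 CPM after H3F3A siRNA. The H3F3A siRNA replicate 1 library lay between the scrambled libraries. The fold change was 1.14 with a 95% interval of 1.00 to 1.30. The coefficient of variation of PTPRD was 12.5% among scrambled and 9.85% among H3F3A siRNA libraries, where counting alone gives 1.62% and 1.51%, so depth was not what limited this comparison. Without scrambled siRNA replicate 3, PTPRD was called higher with a log2 fold change of 0.32, and without scrambled siRNA replicate 1 the value was 0.066 and not called.

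NRXN2 fell. This neurexin gene gave 12.6 and 11.3 CPM in scrambled libraries and 8.20, 7.47 and 7.53 CPM after H3F3A siRNA, and no library of one group reached into the other. The means were 11.96 ± 0.920 CPM (SD, n = 2) and 7.74 ± 0.405 CPM (SD, n = 3), a log2 fold change of -0.63 (SE 0.111), or 1.54-fold lower, in the direction opposite to IL1RAPL2. Per kb of exon, NRXN2 lay at 1.01 to 1.11 CPM after H3F3A siRNA and IL1RAP at 1.53 to 1.72. By this measure the overlap of their levels in scrambled libraries was gone. That overlap depended on the annotated exon length, 7.40 kb for NRXN2 and 9.945 kb for IL1RAP. Without scaling by length, IL1RAP lay above NRXN2 in every library of both groups. The call of NRXN2 was lost without H3F3A siRNA replicate 1, at a log2 fold change of -0.67 (SE 0.117). That fit called 0.0958% of all genes, and NRXN2 lay just above the threshold.

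The other expressed neurexin, NRXN3, was at 0.720 and 1.18 CPM in scrambled libraries and 1.04, 1.21 and 1.07 CPM after H3F3A siRNA. Its groups overlapped, and the 95% interval of its fold change ran from 0.768 to 1.75. At this depth a change of that size in either direction was not detectable.

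Among the neuroligins none was called. NLGN1, the most abundant of them, had 31.7 and 33.9 CPM in scrambled libraries and 31.8, 34.8 and 33.04 CPM after H3F3A siRNA. These values interleave, and the fold change of 1.01 had a 95% interval of 0.898 to 1.14. NLGN3 gave 2.43 and 2.12 CPM against 2.48, 2.44 and 2.04 CPM, a fold change of 1.02 with an interval of 0.771 to 1.34. NLGN2, known for its place at inhibitory synapses, gave 0.685 and 0.606 CPM against 0.502, 0.758 and 0.550 CPM, with an interval of 0.565-fold to 1.54-fold.

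**Figure D2:**
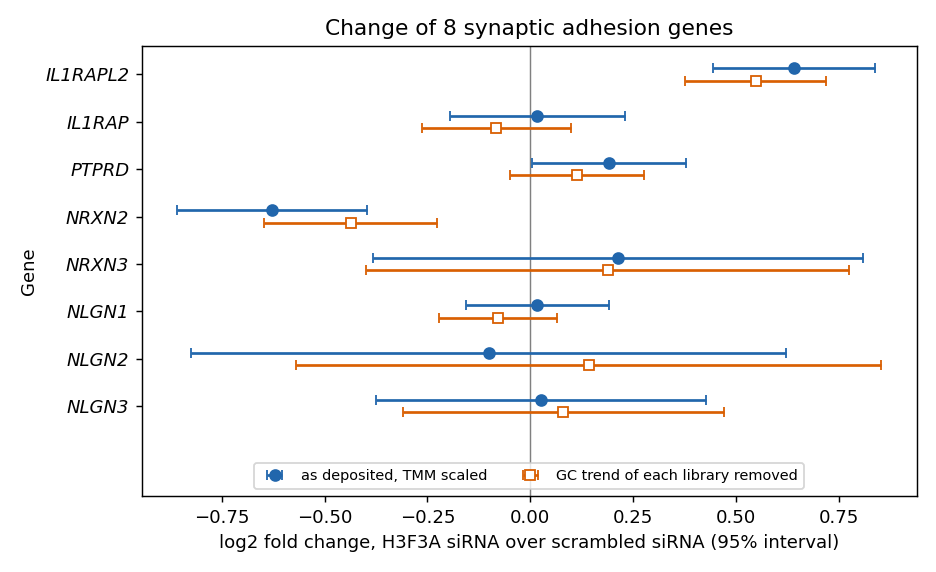
log2 fold change of each tested gene between H3F3A siRNA (n = 3) and scrambled siRNA (n = 2) libraries with its 95% interval, as fitted to the deposited counts (filled circles) and with the GC trend of each library removed (open squares). IL1RAPL2 lies above 0 and NRXN2 below it in both fits, and the intervals of NRXN3 and NLGN2 are the widest.

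The libraries differed in a trend over GC content, and NRXN2 lay at its upper end. For each 10 points of GC content, the deviation of a gene's log2 CPM from its mean over the 5 libraries changed by 0.155 in scrambled siRNA replicate 1 and by -0.0066 in scrambled siRNA replicate 3. In the H3F3A siRNA libraries it changed by -0.063, -0.042 and -0.043. Among 10 classes of genes by GC content, NRXN2 and NLGN2 lay in the highest, where the median log2 fold change was -0.23 and 14.5% of genes were called lower. IL1RAPL2, IL1RAPL1 and PTPRD lay in the third lowest, with a median of 0.07 and 0.904% of genes called higher.

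With the trend removed, the log2 fold change of NRXN2 was -0.44 (SE 0.101) and that of IL1RAPL2 0.55 (SE 0.0822). Both were still called, in a fit that called 2.24% of all genes, 0.549% higher and 1.69% lower. When scrambled siRNA replicate 1 was left out as well, IL1RAPL2 was called at 0.56 and NRXN2 was not called at -0.48. The correction also takes out any GC trend that belongs to the treatment, and the part of either in the fall of NRXN2 was not tested.

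**Figure D3:**
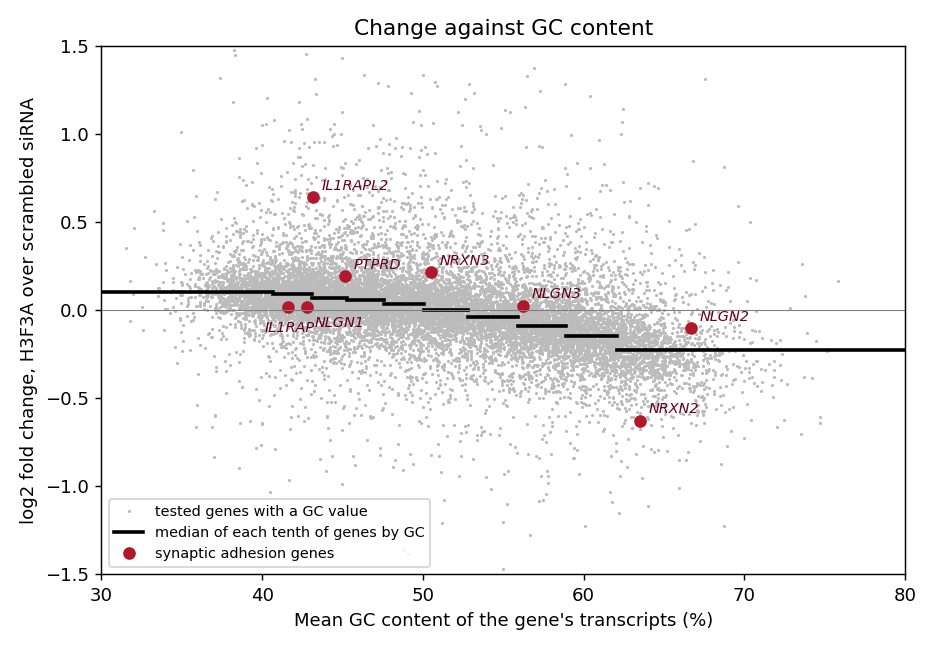
log2 fold change against the mean GC content of each gene's transcripts for the 14377 tested genes with a GC value (grey), of which 14 lie outside the axes, with the median of each of 10 GC classes (black bars) and 8 synaptic adhesion genes (red). IL1RAPL2 lies far above the median of its class at 0.07, and NRXN2 lies below the median of its class at -0.23.

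**Figure D4:**
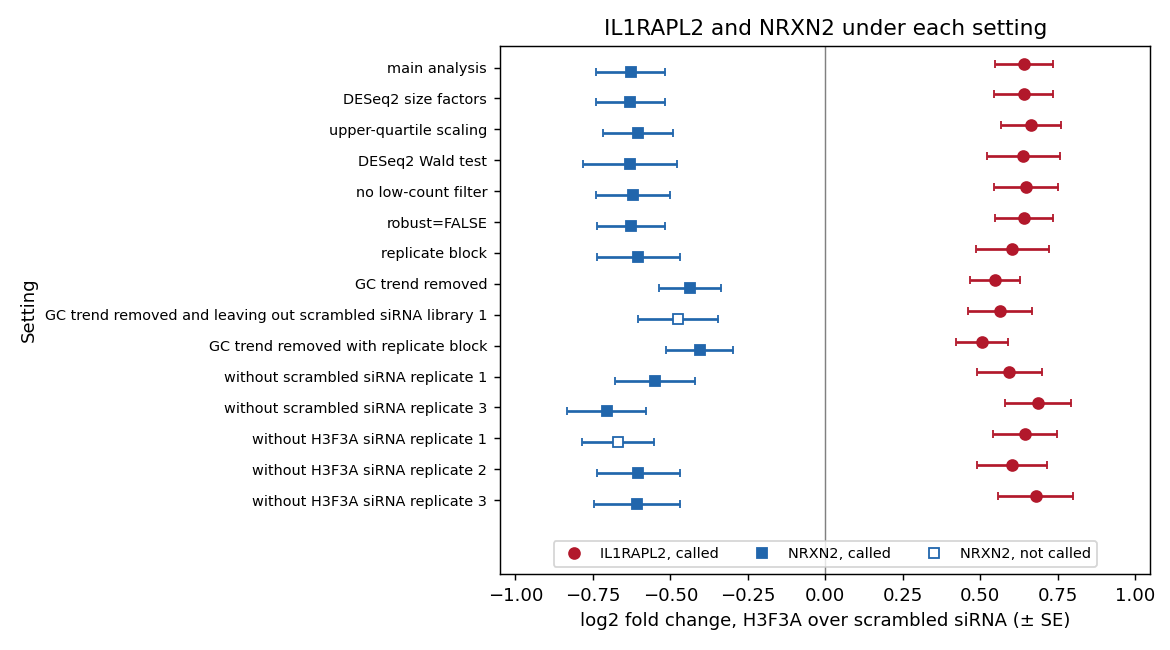
log2 fold change (± SE) of IL1RAPL2 (red circles) and NRXN2 (blue squares) in the main analysis and in 14 alternatives, with filled symbols where the gene was called. IL1RAPL2 is called throughout, and NRXN2 stays below 0 but is not called in 2 alternatives, without H3F3A siRNA replicate 1 and with the GC trend removed when scrambled siRNA replicate 1 was left out.

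The wider set of synapse organisers was described with 5 lists by role, none of whose 110 genes is among the 9. Of these 75 were tested, 1 was called higher and 6 lower, and 68 were not called. That is 9.33% of those tested, against 3.2% of all genes, and their median log2 fold change was 0.0015, against 0.0074 for all genes. The 6 genes called lower had transcript GC contents of 57.3% to 70.2%, where the median of tested genes was 50.1%. Single libraries moved the count, which was lower without scrambled siRNA replicate 1 and higher without scrambled siRNA replicate 3. Without H3F3A siRNA replicate 1 edgeR called 0, in a fit that called 0.0958% of all genes. In that fit 16 were under an unadjusted edgeR p of 0.05, a count not set against all genes there. In the main analysis 19 of the 75 were under it, and so were 2672 of all 15859 genes tested. Without H3F3A siRNA replicate 2 edgeR called 4, where 1.13% of all genes were called. The share over all genes moved in the same direction when a scrambled library was left out, in fits with 1 control library. Calls of single genes lost in these settings are to be read beside those shares and that shift.

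Among the 23 partners of neurexins and neuroligins, 13 were tested, 1 was called lower, and the median log2 fold change was -0.0092. DAG1, dystroglycan, which binds neurexins as well as laminin, drew the most reads of the list. It gave 433 and 424 CPM in scrambled libraries and 324, 343 and 343 CPM after H3F3A siRNA. It fell 1.27-fold (log2 fold change -0.35, SE 0.0735, edgeR adjusted p = 0.0109), with adjusted p = 0.0195 after removal of the GC trend. It was not called without H3F3A siRNA replicate 1 (edgeR adjusted p = 0.131) or replicate 2 (edgeR adjusted p = 0.0573).

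Of 21 LAR-type phosphatases and partners, 17 were tested and 2 were called lower, with a median log2 fold change of -0.007. PTPRF, a paralog of PTPRD, went from 250.2 and 232 CPM to 171, 189 and 201 CPM, a 1.29-fold fall (log2 fold change -0.37, SE 0.0799, edgeR adjusted p = 0.0135). Its call was lost without scrambled siRNA replicate 1 (edgeR adjusted p = 0.0839), H3F3A siRNA replicate 1 (edgeR adjusted p = 0.166) or H3F3A siRNA replicate 2 (edgeR adjusted p = 0.0674). PTPRS, the remaining paralog, stood at 89.1 and 82.0 CPM against 81.1, 88.2 and 86.1 CPM, with a 95% interval of -0.17 to 0.15 for its log2 fold change. A difference between the paralogs was not tested. LRFN4, a postsynaptic adhesion protein of the SALM family, fell 1.45-fold, with 90.2 ± 14.1 CPM (SD, n = 2) in controls and 62.2 ± 1.68 CPM (SD, n = 3) in treated cells (edgeR adjusted p = 0.00187). Its log2 fold change went from -0.54 to -0.23 with the GC trend removed, and it was not called without H3F3A siRNA replicate 1 (edgeR adjusted p = 0.0838). TRIO, a guanine nucleotide exchange factor that binds LAR phosphatases, drew the most reads of the list and was not called (log2 fold change -0.23, edgeR adjusted p = 0.137). It was called in 1 of the 14 alternatives, with the replicate number as a block and the GC trend removed (log2 fold change -0.30, edgeR adjusted p = 9.52e-07). That model leaves little from which to estimate spread, as described below.

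Of 18 genes of the interleukin-1 receptor family and its adaptors, 8 were tested. The kinase IRAK1, which acts downstream of MYD88, drew the most reads and was the only one called. It went from 339 and 287 CPM to 231, 234 and 230 CPM, a 1.35-fold fall (log2 fold change -0.43, SE 0.079, edgeR adjusted p = 0.0038), and its log2 fold change was -0.24 with the GC trend removed. It was not called without H3F3A siRNA replicate 1 (edgeR adjusted p = 0.0963). The median log2 fold change of the tested genes was 0.014. No library had more than 10 reads for 9 of the 18 genes.

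Of 27 other synaptic adhesion genes, 18 were tested, 1 was called higher and 1 lower, with a median log2 fold change of -0.0085. FLRT3, a leucine-rich repeat protein that binds latrophilins, rose 1.72-fold from 2.84 and 3.50 CPM to 4.82, 5.51 and 6.01 CPM (log2 fold change 0.78, SE 0.158, edgeR adjusted p = 0.00845). It was the only gene of the wider lists called higher, and its groups did not overlap. Its call was lost without scrambled siRNA replicate 1 (edgeR adjusted p = 0.165) and without H3F3A siRNA replicate 1 (edgeR adjusted p = 0.0771). LRRC4, a ligand of netrin-G proteins, fell 1.34-fold, with 15.5 ± 0.692 CPM (SD, n = 2) in controls and 11.5 ± 0.817 CPM (SD, n = 3) in treated cells (edgeR adjusted p = 0.0252), and was not called with the GC trend removed (edgeR adjusted p = 0.0693). Its call was also lost without scrambled siRNA replicate 1 (edgeR adjusted p = 0.0696), H3F3A siRNA replicate 1 (edgeR adjusted p = 0.181) or H3F3A siRNA replicate 2 (edgeR adjusted p = 0.132). ADGRL2, a latrophilin and the gene with the most reads of the list, was not called, with 150 and 168 CPM against 169, 181 and 176 CPM, except without scrambled siRNA replicate 3 (log2 fold change 0.23, edgeR adjusted p = 0.0357).

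Of 21 postsynaptic scaffolds and associated proteins, 19 were tested and 1 was called lower, with a median log2 fold change of 0.044. MCF2L, a guanine nucleotide exchange factor reported to bind IL1RAPL1, fell 1.33-fold from 25.2 and 20.7 CPM to 17.3, 17.8 and 16.7 CPM (edgeR adjusted p = 0.0229). Without scrambled siRNA replicate 1, the library at 25.2 CPM, its log2 fold change went from -0.41 to -0.27 and was not called (edgeR adjusted p = 0.34). It was called in 1 of 5 analyses that left out a library, the one without scrambled siRNA replicate 3, with adjusted p of 0.0671 to 0.169 without single H3F3A siRNA libraries. NCS1, a calcium sensor that binds the intracellular part of IL1RAPL1, drew the most reads of the list. It gave 281 and 259 CPM against 257, 260 and 259 CPM, with a 95% interval of -0.21 to 0.09 for its log2 fold change.

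**Figure D5:**
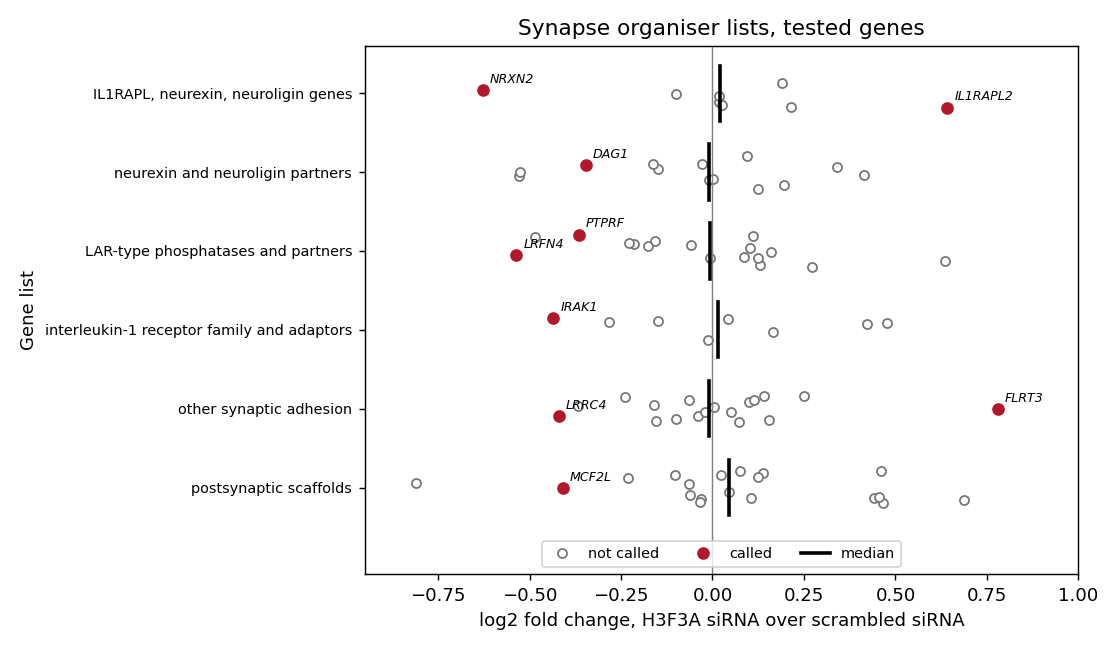
log2 fold change of every tested gene in the set of 9 and in the 5 wider lists, with called genes filled and named and the median of each list as a black bar. Called genes lie on both sides of 0 with most to the left, and FLRT3 and IL1RAPL2 alone are called to the right.

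The tested genes whose profile over the 5 libraries was most like that of IL1RAPL2 were found among 10500 candidates that averaged at least 5 CPM, by Euclidean distance between centred log2 CPM profiles. They were KCNC2 (distance 0.053), SCN3B (0.142), CNTNAP3 (0.147), FCRLA (0.181) and FRMD3 (0.19). KCNC2, a voltage-gated potassium channel, went from 18.3 and 20.4 CPM to 29.8, 31.4 and 28.5 CPM, so its order of libraries was that of IL1RAPL2. SCN3B is a sodium channel beta subunit, CNTNAP3 a contactin-associated protein of the neurexin superfamily, FCRLA an Fc receptor-like protein and FRMD3 a FERM domain protein. CNTNAP3 went from 5.11 and 5.01 CPM to 7.37, 7.85 and 6.85 CPM. It has near-identical copies in the genome, so its counts are uncertain. The difference between the groups, by which IL1RAPL2 was chosen, is part of each distance.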

How the data were processed

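Poly-A RNA of 5 Rh41 libraries was analysed. Per the submitters' processing notes, STAR 2.5, HTSeq 0.6.1, CASAVA, bcl2fastq and the hg19 build were used, in roles the notes do not give. Each deposited file holds raw counts of reads per gene, laid out as STAR writes them: 1 column regardless of strand, 2 columns by strand, and 4 summary lines that name no gene and were left out of library sizes. Of all reads, 9.17% to 10.2% overlapped no annotated exon, 6.28% to 6.42% mapped to several places, 4.84% to 5.48% were unmapped and 4.45% to 4.56% were ambiguous between genes. The stranded columns split reads evenly (49.9% to 50.1% in the first), so the column without strand was used, and reads cannot be assigned to a strand where genes overlap.

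All genes were fitted with edgeR 4.0.16 in R 4.3.3: filterByExpr on group (minimum count 10, minimum total 15), TMM, quasi-likelihood test with robust=TRUE, no covariates, Benjamini-Hochberg adjustment over 15859 genes, threshold 0.05. The common biological coefficient of variation was 6.53%. SE came from the fold change and F statistic, and 95% intervals are unadjusted. The fit was tested on simulated data. GC content and exon lengths came from GENCODE v29 by gene name or ID, and 90.7% of tested genes had a GC value. The GC trend was removed by a lowess curve (span 0.3) of each library's log2 CPM deviation, used as an offset. Coding sequences were aligned globally with Biopython 1.88, using the longest complete coding transcript of each gene. The 14 alternatives also included other scaling, DESeq2 1.42.0, no filter, robust=FALSE, a replicate block and leaving out each library.

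The 9 genes, the lists and the tests were chosen with earlier results of these data known. Named by rule were the 9 genes, H3F3A, all called genes and the gene with the highest mean CPM of each wider list, NLGN4X, PTPRF, PTPRS and the 5 genes most like IL1RAPL2. Marker lists covered rhabdomyosarcoma (9 of 10 tested, 1 called higher and 1 lower), neurons (7 of 12 tested, 1 called lower), glia (2 of 7 tested, none called) and immune cells (1 of 5 tested, none called), where none means 0 by edgeR and 0 under an unadjusted p of 0.05. A gene that the rule also gave is not reported here.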

Additional observations from a re-analysis of the deposited data

How the results depend on the processing

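H3F3A was called lower in all 14 alternatives. IL1RAPL2 was called higher in all 14 and NRXN2 lower in 12, and neither changed sign. Both were chosen with this contrast known, so refits of the same libraries add no support for either change. The count of called genes among the 9 was 2 in the main analysis. It was lower with the GC trend removed and scrambled siRNA replicate 1 left out, where a smaller share of all genes was called as well. It was 1 without H3F3A siRNA replicate 1, where 0.0958% of all genes were called. Without scrambled siRNA replicate 3 it was higher, PTPRD included, and so was the share over all genes. In the wider lists the count of 7 became 0 by edgeR with the GC trend removed and scrambled siRNA replicate 1 left out, with 16 under an unadjusted p of 0.05, and ran from 0 to 18 over single libraries left out. A control group reduced to 1 library was assumed to vary like the other group. With the GC trend removed 7 were called, 6 of them also called without it; LRRC4 was lost and NXPH3 (log2 fold change 0.55, edgeR adjusted p = 0.027), named after its values were seen, was gained as higher. Over all genes tested, the percent called ran from 0.0958% without H3F3A siRNA replicate 1 to 15.1% without scrambled siRNA replicate 3. With the replicate block 2 of the 9 genes were called, and 7 of the wider lists, in a fit that called 3.62% of all genes. Of the genes from the wider lists, 6 were also called without the block. LRRC4 (edgeR adjusted p = 0.0504) was lost and LRRC4B (log2 fold change -0.62, edgeR adjusted p = 0.00551) gained as lower. With the replicate block and the GC trend removed, 10 were called: the 7, NXPH3 (edgeR adjusted p = 0.0114) as higher, and TENM3 (edgeR adjusted p = 0.00257) and TRIO (log2 fold change -0.30, edgeR adjusted p = 9.52e-07) as lower. These gained genes were named after their values were seen. The fit with both called 6.68% of all genes. In a block model H3F3A siRNA replicate 2, with no scrambled library of its number, adds nothing to the group difference. Little is then left from which to estimate spread, so small adjusted p there are to be read with that limit. The block alone gave log2 fold changes of 0.60 for IL1RAPL2 and -0.60 for NRXN2. Deviations of same-numbered libraries correlated at 0.112 (replicate 1) and 0.0487 (replicate 3) over 2 pairs. With 2 scrambled libraries their deviations are mirror images: H3F3A siRNA replicate 1 gave 0.112 with scrambled siRNA replicate 1 and -0.112 with replicate 3. The check therefore cannot decide whether same-numbered libraries belong together. Depth limits NRXN3, NLGN2 and IL1RAPL1, with at most 35, 22 and 3 reads per library.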

Other observations

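Among genes of the wider lists that were not called, the 3 with the smallest adjusted p are given here; they were picked after their values were seen. SHANK2, a scaffold of excitatory synapses, had 1.41 ± 0.0899 CPM (SD, n = 2) in scrambled libraries and a log2 fold change of -0.81 (edgeR adjusted p = 0.0956). DLG2, a PSD-95 family scaffold, had a log2 fold change of 0.44 (edgeR adjusted p = 0.0598), and was called with no low-count filter and without scrambled siRNA replicate 3. LRRC4B, a ligand of LAR-type phosphatases, had a log2 fold change of -0.49 (edgeR adjusted p = 0.0582), and was called in those 2 alternatives, with the replicate block and without H3F3A siRNA replicate 2.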
